A study of Mus musculus with 6 samples.

Results

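Integrins are cell-surface receptors built from an alpha and a beta subunit, and they tie the extracellular matrix to the actin cytoskeleton. The alpha subunit largely sets which ligand is bound: alpha1, alpha2, alpha10 and alpha11 with beta1 bind collagens, alpha3 and alpha6 bind laminins, and alpha5 with beta1 or alphaV with several beta subunits bind fibronectin, vitronectin and other proteins through an Arg-Gly-Asp (RGD) motif. In osteoblasts, the cells that lay down bone matrix, collagen and fibronectin receptors are known for their part in attachment and differentiation. The genes described here are 10 matrix-binding subunits, chosen by name: Itga1, Itga2 and Itga10 (collagen), Itga3 and Itga6 (laminin), Itga4, Itga5 and Itgav (fibronectin and RGD ligands), and Itgb3 and Itgb5 (partners of alphaV). All 10 were present among the 55471 genes of the count table, and all 10 passed the filter on low counts that left 13826 genes to test. Another 17 integrin subunits were used for comparison.

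Polyadenylated RNA was sequenced from cultured primary osteoblasts of the calvaria (skull vault) of 3-day-old C57BL/6 mice, in 3 wild-type (WT) libraries and 3 libraries labelled TCKO (Tet1fl/fl, Tet2fl/fl and Tet3fl/fl together with Prx1-Cre). TCKO mice carry floxed alleles of the 3 TET genes, whose enzymes oxidise methylated cytosine, and a Cre driven by Prx1, which is active in limb and in part of the skull mesenchyme, so cells of other origin keep their alleles. Whether WT mice carried floxed alleles or Cre, and how many mice gave each library, was not stated. The p-values below therefore measure only the spread between these libraries, which may be technical.

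Libraries held 8019999 to 10177214 counts, and 3 counts (the floor used here) corresponded to 0.295 to 0.374 CPM (counts scaled to the library total). The targeted genes did not all follow the label. Tet1 was counted 98, 131 and 115 times in the WT libraries and 68, 51 and 51 times in the TCKO libraries (log2 fold change −0.97 ± 0.16, standard error (SE), adjusted p = 0.00648 by edgeR's quasi-likelihood test). Tet2 had 132, 213 and 159 against 159, 121 and 161 (adjusted p = 0.545), and Tet3 rose, from 485, 611 and 452 to 795, 622 and 712 (0.51 ± 0.09, adjusted p = 0.00745). Counts over a whole gene include transcripts that lack a floxed exon, so these totals do not measure the deletion, and all directions below are those of the libraries labelled TCKO. Replicates 1 and 2 of each genotype were far closer to each other (chi-square per degree of freedom 1.69 in WT and 2.04 in TCKO) than either was to replicate 3 (16.5 to 23.3), which also had more mitochondrial counts (2.22% and 2.47%, against 1.11% to 1.24%). TCKO replicate 3 also stood apart in sex-linked genes, with 4583 Xist counts and 0 Ddx3y counts, where the other libraries had 1 to 4 and 675 to 1094. Of the 12 listed osteoblast markers 9 were tested. At an adjusted p under 0.05, 4 were lower (Col1a1, Runx2, Alpl and Sparc) and 1 higher (Msx2), where 17.7% of all genes passed. The summed CPM of the 12 was 39032 to 42202 in WT and 19663 to 28156 in TCKO, of which Col1a1 averaged 22046 and 14686. Bglap and Dmp1, which mark mature cells and osteocytes, reached at most 3 counts in any library.

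In TCKO, 3 of the 10 subunits rose (Itga4, Itga5 and Itga6), 3 fell (Itga1, Itga10 and Itgb5) and 4 did not pass an adjusted p under 0.05 (Itga2, Itga3, Itgav and Itgb3). Of all 13826 genes tested, 17.7% passed that threshold, 9.07% higher and 8.63% lower. With a change of more than 2-fold required as well, 1 subunit was higher (Itga4) and 1 lower (Itga1), against 3.16% and 3.19% of all genes, or 6.35% in both directions. The CPM ranges of the genotypes did not overlap for 7 subunits, as for 38.5% of all genes. The median log2 fold change was 0.23 over the 10 subunits and 0.0002 over all genes. The number that rose fell to 1, Itga5, when replicate 1 or 2 of either genotype was left out, and it rose to 5 when a term for replicate number was fitted, with Itga3 and Itgb3 added (23.5% of all genes then passed). The number over 2-fold fell from 2 to 1 in the same 4 left-out fits, as Itga4 no longer passed. With replicates 1 and 2 of each genotype summed, 0 subunits and 2.79% of all genes passed. With that sum and the replicate term, Itga3, Itga4 and Itga5 were higher and Itga1 and Itgb5 lower, where 8.32% of all genes passed, so that Itga6 (adjusted p = 0.105) and Itga10 (adjusted p = 0.0586) lost their calls.

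**Figure D1:**
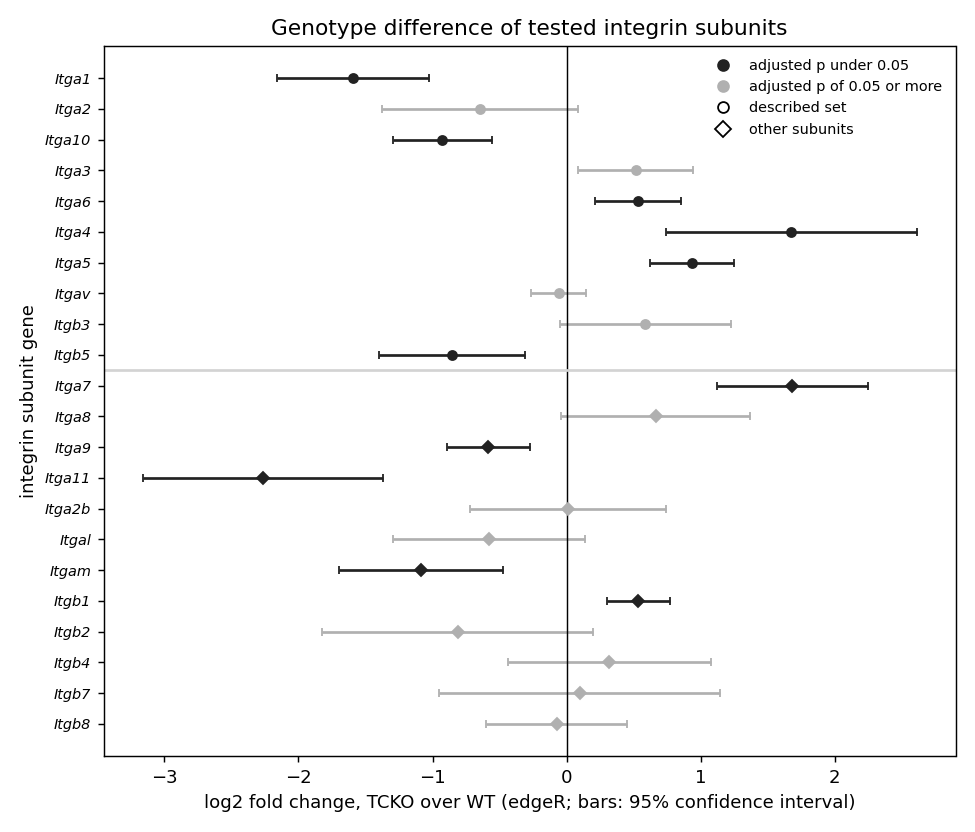
Log2 fold change of TCKO over WT (x axis) for each tested integrin subunit (y axis), from the edgeR fit, with 95% confidence intervals. Circles above the grey line are the 10 described subunits and diamonds below it are the other 12 tested. Black points passed an adjusted p under 0.05, and the interval of Itgav (−0.26 to 0.14) is the narrowest of the 10.

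Of the collagen-binding subunits, Itga1 and Itga10 fell in TCKO and Itga2 did not pass. Itga1 (alpha1, which prefers basement-membrane collagen, on chromosome 13, 114953096 to 115101964, GRCm38) gave WT counts of 499, 607 and 307 in replicates 1, 2 and 3, against TCKO counts of 197, 137 and 116. Every TCKO library lay below every WT library. The fall was −1.59 ± 0.24 (95% confidence interval −2.16 to −1.03, adjusted p = 0.00451), from 2.80 ± 0.698 to 0.948 ± 0.252 RPKM (CPM per kilobase of exon, mean ± SD, n = 3), and it passed without each library in turn.

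Itga10 (alpha10, a receptor best known from cartilage, on chromosome 3, 96645584 to 96664519) showed 84, 91 and 81 counts across WT replicates against 47, 36 and 48 across TCKO replicates. WT libraries lay within 1.72 to 1.93 RPKM and TCKO libraries within 0.866 to 1.06, so the genotypes did not overlap (−0.93 ± 0.16, adjusted p = 0.00709). The call was lost with replicates 1 and 2 summed, both without the replicate block (adjusted p = 0.104) and with it (0.0586). Of the 10 listed chondrocyte markers all 10 fell by more than 2-fold, as 3.19% of all tested genes did. The summed CPM of these markers lay between 6394 and 8368 for WT but between 761 and 1034 for TCKO. Their part in the Itga10 result was not tested, and in bulk RNA fewer cells of a type and less RNA per cell cannot be told apart.

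Itga2 (alpha2, the main receptor for fibrillar collagen on platelets and epithelia, on chromosome 13, 114833081 to 114932100) lies 20995 bp from Itga1. It gave WT counts of 19, 38 and 25, against TCKO counts of 19, 19 and 12. The genotypes overlapped, and the difference of −0.65 ± 0.32 (interval −1.37 to 0.08, adjusted p = 0.202) was not resolved at this depth.

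Together these 3 genes gave 4.30 to 5.45 RPKM in WT and 1.96 to 2.56 in TCKO. The fourth collagen-binding subunit, Itga11, was outside the set but far more abundant, at 1920, 2437 and 2003 WT counts against 568, 530 and 170 TCKO counts (−2.26 ± 0.39, adjusted p = 0.00696). Itga11 held 89.1% to 91.6% of the RPKM of the 4 collagen-binding alpha subunits in WT and 65.9% to 85.9% in TCKO, the lowest share being that of TCKO replicate 3.

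**Figure D2:**
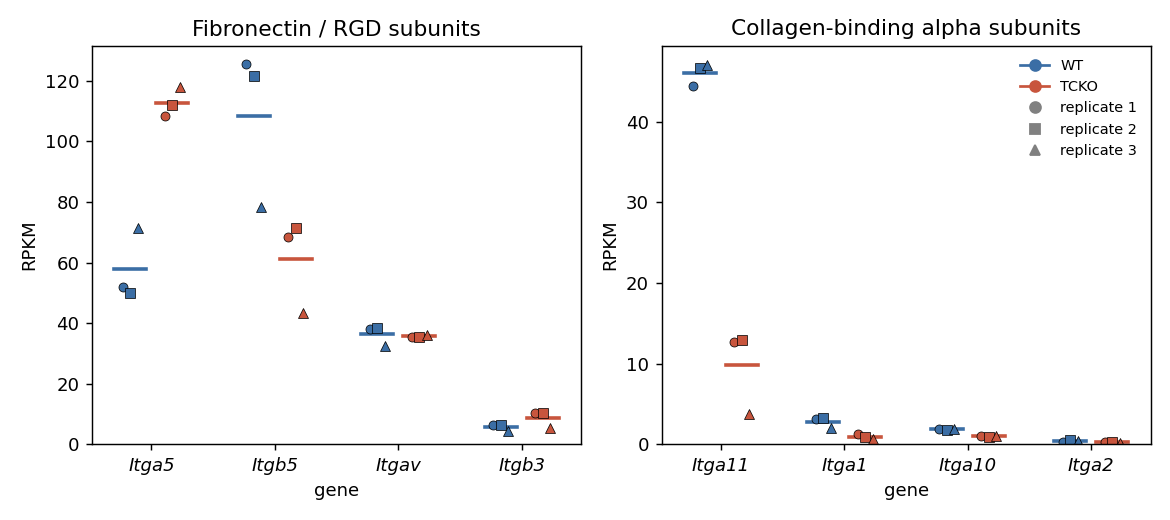
RPKM (linear y axis) of Itga5, Itgb5, Itgav and Itgb3 (left) and of the collagen-binding subunits Itga11, Itga1, Itga10 and Itga2 (right). Each point is a library and bars are at the mean of 3 libraries per genotype. Sums are not drawn. Itga1, Itga2 and Itga10 summed to 5.06 ± 0.663 RPKM in WT and 2.21 ± 0.310 in TCKO (mean ± SD). Itga4 (not drawn), Itga5 and Itgav summed to 94.5 ± 8.48 and 149.2 ± 4.99.

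Of the laminin-binding subunits, Itga6 rose and Itga3 did not pass. Itga6 (alpha6, partner of beta1 or beta4, on chromosome 2, 71745616 to 71858416) was counted 96, 145 and 105 times in the WT libraries and 147, 151 and 185 times in the TCKO libraries. As RPKM, each TCKO library (lowest 1.84) was above each WT library (highest 1.56), with a log2 fold change of 0.53 ± 0.14 (adjusted p = 0.0344). The call was marginal: without any 1 of the 6 libraries the adjusted p lay between 0.0550 and 0.129. Alpha6 is also carried by endothelial cells, whose 10 listed markers summed to 6.54 to 9.16 CPM in WT and 38.2 to 104 in TCKO. Of the 3 tested, Kdr and Esam rose and Erg fell. Kdr, most of the TCKO sum, was at 3, 4 and 13 WT counts against 293, 266 and 837 TCKO counts, Esam at 7, 2 and 8 against 23, 19 and 53, and Erg at 23, 44 and 39 against 6, 2 and 8. Pecam1 and Cdh5 stayed at 7 counts or fewer, and Tie1 and Cldn5 at 3 or fewer. The part of these markers in the Itga6 value was not tested.

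Itga3 (alpha3, a receptor for laminin-332 and laminin-511, on chromosome 11, 95044474 to 95076801) showed 311, 378 and 422 counts across WT replicates against 447, 425 and 682 across TCKO replicates. The ranges just missed each other, at 6.48 to 8.91 RPKM in WT and 8.97 to 13.6 in TCKO. Replicate 3 was the highest of its genotype in both. The difference of 0.51 ± 0.19 had an adjusted p of 0.0985, or 0.00410 with replicate number as a block and 0.0415 without WT replicate 3.

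Among the fibronectin and RGD-binding subunits, Itga5 and Itga4 rose and Itgav did not pass. Itga5 (alpha5, the classical fibronectin receptor with beta1, on chromosome 15, 103344286 to 103366763) gave WT counts of 2159, 2515 and 2928, against TCKO counts of 4661, 4433 and 5105. WT libraries spread from 50.1 to 71.6 RPKM and TCKO libraries from 108.3 to 118.1, with no overlap. The change of 0.93 ± 0.13 (interval 0.62 to 1.24, adjusted p = 0.00341), or 1.91-fold, passed without each library in turn. It was over 2-fold without WT replicate 3 (log2 fold change 1.11).

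Itga4 (alpha4, which binds fibronectin and the adhesion molecule VCAM-1, on chromosome 2, 79255426 to 79333123) was the least abundant subunit in WT. Its WT counts were 25, 43 and 20, and its TCKO counts 139, 82 and 49. The lowest TCKO library, replicate 3, was 0.400 RPKM and the highest WT library 0.302, so the genotypes were apart. The rise of 1.68 ± 0.40 was the largest of the set (3.20-fold, adjusted p = 0.0266). Without WT replicate 1, 2 or 3 or TCKO replicate 1 or 2 the adjusted p was 0.0600 to 0.0984, and it stayed below 0.05 without TCKO replicate 3. Leukocytes also carry alpha4, and the summed macrophage and osteoclast markers were 423 to 772 CPM in WT and 173 to 604 in TCKO. Most of that sum was Lyz2, at 505 ± 157 CPM in WT and 360 ± 197 in TCKO (mean ± SD, adjusted p = 0.482). Adgre1 and Csf1r were the only markers of that list to pass, both lower in TCKO. The part of these markers in the Itga4 value was not tested.

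Itgav (alphaV, which pairs with beta1, beta3, beta5, beta6 or beta8, on chromosome 2, 83724397 to 83806916) was counted 3445, 4197 and 2893 times in the WT libraries and 3312, 3053 and 3401 times in the TCKO libraries. Levels were 36.3 ± 3.35 RPKM in WT and 35.6 ± 0.427 in TCKO. The ranges overlapped, and the interval of the difference, −0.26 to 0.14 (−0.06 ± 0.09, adjusted p = 0.690), leaves out a change of 2-fold in either direction. With replicate 3 of both genotypes left out the value was −0.14 with an adjusted p of 0.00765.

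Of the beta partners of alphaV, Itgb5 fell and Itgb3 did not pass. Itgb5 (beta5, the vitronectin receptor with alphaV, on chromosome 16, 33829665 to 33949338) showed 3749, 4395 and 2309 counts across WT replicates against 2126, 2036 and 1355 across TCKO replicates. Replicate 3 was lowest in each genotype, yet no TCKO library (43.5 to 71.5 RPKM) reached a WT library (78.4 to 125.5). The fall was −0.86 ± 0.24 (adjusted p = 0.0424). Leaving out replicate 1 or 2 of either genotype gave an adjusted p of 0.0723 to 0.147, and the replicate block 0.000452.

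Itgb3 (beta3, the osteoclast and platelet partner of alphaV and alphaIIb, on chromosome 11, 104608000 to 104670476) gave WT counts of 308, 383 and 211, against TCKO counts of 535, 491 and 269. TCKO replicate 3 fell within the WT range, and the other TCKO libraries lay above it. The difference of 0.59 ± 0.28 had an adjusted p of 0.186, or 0.0123 with the replicate block and 0.00856 without TCKO replicate 3. It was 0.111 with the block once replicates 1 and 2 were summed. Of the 15 macrophage and osteoclast markers 12 were tested, with 0 higher and 2 lower, where 17.7% of all genes passed. The 2 lower were Adgre1 (−1.44 ± 0.27, adjusted p = 0.0100) and Csf1r (−1.21 ± 0.29, adjusted p = 0.0253). The median log2 fold change of the 12 was −0.69. The osteoclast genes Ocstamp, Dcstamp and Calcr had at most 3 counts in every library, while Acp5 had 19, 16 and 26 WT counts against 27, 38 and 17 TCKO counts (adjusted p = 0.467) and Mmp9 had 8, 33 and 68 against 52, 71 and 23 (adjusted p = 0.674). Their part in the Itgb3 value was not tested. Per library, the RPKM ratio of Itgb5 to Itgb3 was 20.2, 19.1 and 18.2 in WT and 6.60, 6.89 and 8.37 in TCKO, with no overlap.

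**Figure D3:**
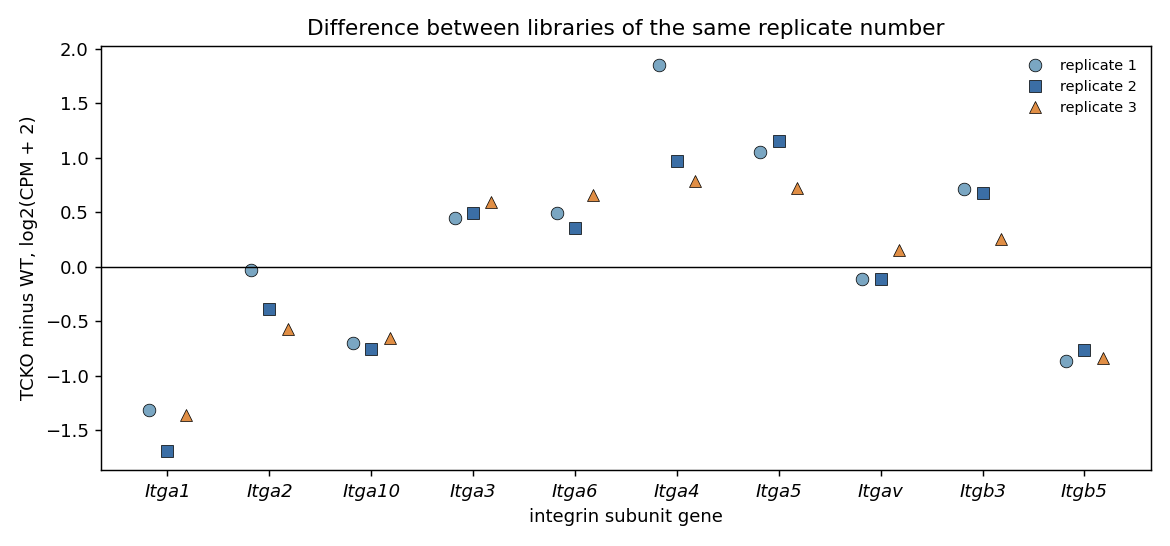
TCKO minus WT difference in log2(CPM + 2) (y axis) for each subunit (x axis), with 1 symbol per replicate number. For 9 of the 10 subunits the 3 differences had the same sign, and the share of all genes that did so was not computed. Replicates 1 and 2 of each genotype were close to each other, so their signs tend to agree. Itgav was negative in replicates 1 and 2 (−0.11 in each) and positive in replicate 3 (0.15), and Itga4 spread most, from 0.78 to 1.85.

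Differences were also read between libraries of the same replicate number. Replicates 1 and 2 of each genotype were close to each other, so the 3 pairs are not 3 separate checks. Itgb5 differed by −0.87, −0.76 and −0.84 on the log2(CPM + 2) scale, which understates the differences of low genes. Itgb3 differed by 0.71, 0.67 and 0.25, and Itga3 by 0.45, 0.49 and 0.59. Itga1 (−1.32, −1.69 and −1.36), Itga10 (−0.70, −0.75 and −0.65) and Itga5 (1.05, 1.16 and 0.72) kept their direction in all 3 pairs, as did Itga2, whose difference in replicate 1 was only −0.03.

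The order of the levels per exon length also differed between genotypes. In WT it ran Itgb5, Itga5, Itgav, Itga3, Itgb3, Itga1, Itga10, Itga6, Itga2 and Itga4, from 108.5 ± 26.1 to 0.229 ± 0.0664 RPKM, and no neighbours in that order overlapped. In TCKO it ran Itga5, Itgb5, Itgav, Itga3, Itgb3, Itga6, Itga10, Itga1, Itga4 and Itga2, and the ranges of Itga3 and Itgb3, of Itga10 and Itga1, and of Itga1 and Itga4 overlapped. TPM values gave the same order in both genotypes. Itga5 and Itgb5 exchanged the first place, and their RPKM ratio was 0.415, 0.412 and 0.913 in WT and 1.58, 1.57 and 2.71 in TCKO. Among all tested genes, Itgb5 went from percentile 96.6 to 93.6 and Itga5 from 93.5 to 96.6, while Itga1 went from 32.3 to 13.3. Summed over the 10 subunits the level was 222 ± 18.2 RPKM in WT and 234 ± 11.5 in TCKO, with overlapping ranges, and Itga5 made up 53.2 ± 6.17% of the alpha members' sum in WT and 68.7 ± 0.485% in TCKO. These levels are descriptions, with no test. Exons of Itga1, Itga10, Itga4 and Itgav share 685, 1739, 1124 and 634 bases with an overlapping gene, and those 4 other genes had at most 9 counts in any library. How reads in the shared bases were counted was not given, so the levels of these subunits may be understated.

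**Figure D4:**
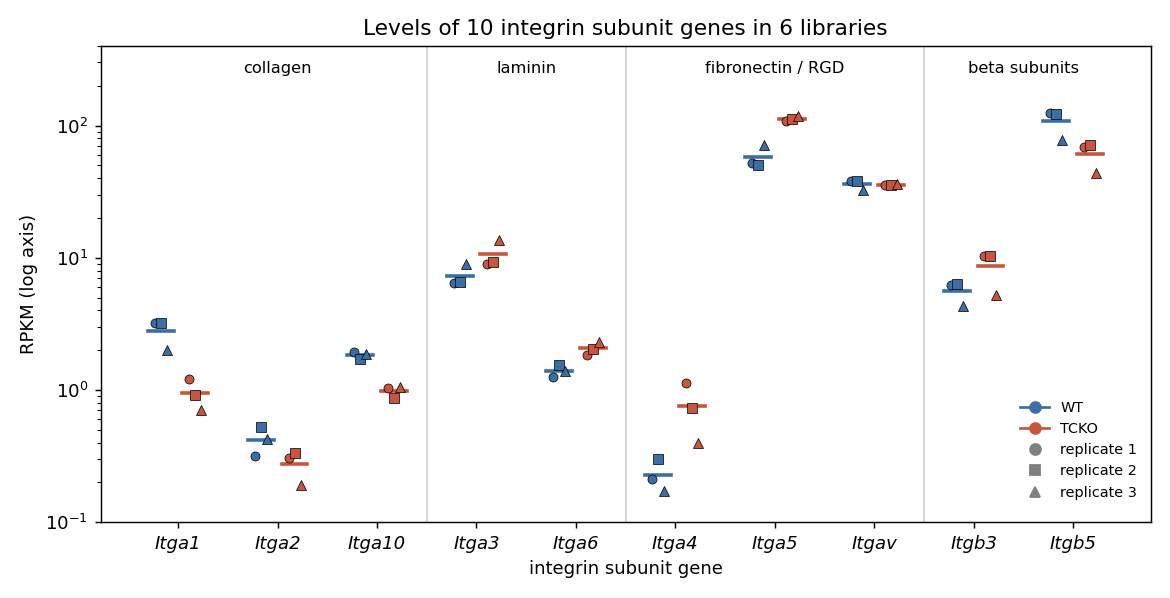
RPKM of each of the 10 subunits (x axis) in every library, on a log10 y axis. Points are libraries and bars the mean of 3 per genotype. Itgb5, Itga5 and Itgav stand above the rest in both genotypes and together hold 91.1 ± 0.577% of the summed level in WT and 89.6 ± 0.281% in TCKO (mean ± SD).

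Proximal promoters are shown for the subunits that passed the test and have a RefSeq entry, since CpG dinucleotides are where TET enzymes act; methylation was not measured in these files. Each is the 250 bases before the RefSeq start (GRCm38.p6), 5′ to 3′ on the gene's strand, with CpGs in capitals. The windows are chr13:115101965-115102214 (minus strand), chr3:96645334-96645583 (plus), chr2:79255176-79255425 (plus), chr15:103366792-103367041 (minus) and chr16:33829415-33829664 (plus), in the order printed.
Itga1: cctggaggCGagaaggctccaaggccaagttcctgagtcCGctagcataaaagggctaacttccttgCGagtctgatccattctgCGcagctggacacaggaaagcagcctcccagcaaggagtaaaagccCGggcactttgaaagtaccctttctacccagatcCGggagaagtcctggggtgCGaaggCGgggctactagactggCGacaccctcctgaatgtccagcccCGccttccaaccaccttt
Itga10: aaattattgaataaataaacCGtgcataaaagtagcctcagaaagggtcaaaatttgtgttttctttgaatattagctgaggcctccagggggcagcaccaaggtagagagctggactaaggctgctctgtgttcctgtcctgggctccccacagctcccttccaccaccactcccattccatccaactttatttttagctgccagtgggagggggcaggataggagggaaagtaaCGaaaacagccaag
Itga4: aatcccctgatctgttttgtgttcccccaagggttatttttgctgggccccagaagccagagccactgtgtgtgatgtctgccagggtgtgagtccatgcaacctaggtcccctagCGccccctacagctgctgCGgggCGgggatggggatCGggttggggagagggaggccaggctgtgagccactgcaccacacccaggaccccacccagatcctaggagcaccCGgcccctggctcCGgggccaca
Itga5: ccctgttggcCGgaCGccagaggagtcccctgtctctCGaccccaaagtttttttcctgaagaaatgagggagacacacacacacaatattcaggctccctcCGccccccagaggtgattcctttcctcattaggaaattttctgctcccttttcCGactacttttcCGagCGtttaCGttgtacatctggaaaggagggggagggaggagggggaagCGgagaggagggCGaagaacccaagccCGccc
Itgb5: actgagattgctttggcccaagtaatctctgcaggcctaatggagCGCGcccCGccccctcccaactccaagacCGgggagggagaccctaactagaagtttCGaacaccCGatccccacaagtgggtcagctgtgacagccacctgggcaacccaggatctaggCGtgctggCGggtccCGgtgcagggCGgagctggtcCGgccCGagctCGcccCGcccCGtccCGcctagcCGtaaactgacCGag
Of the 10 subunits, 8 had an entry, with 9 windows in all because Itga3 has 2 starts. The Itga1 window held 10 CpGs, Itga10 2, Itga4 6, Itga5 11 and Itgb5 18, against a median of 6 over 32851 windows of the same length. The subunits that fell and those that rose did not separate by CpG count. GGGCGG, the GC box, on either strand, which contains a CpG, was in 5 of the 9 windows (both of Itga3, and Itga4, Itga5 and Itgb5) and in 32.7% of all windows. TGTGGT, a RUNX core motif, on either strand was in the windows of Itga4 and of 1 Itga3 start and in 14.0% of all windows.

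The other subunits were read by the same fit. Of the 17, 12 were tested, with 2 higher, 3 lower and 7 not passing, and a median of −0.03. More than 2-fold, 1 rose and 2 fell. Over all genes tested, 17.7% passed, and 6.35% did so with a change of more than 2-fold. Itgb1, the beta1 partner shared by alpha1 to alpha6, alpha10 and alpha11, was counted 15851, 19727 and 17939 times in the WT libraries and 24659, 22440 and 28365 times in the TCKO libraries (0.54 ± 0.10, adjusted p = 0.0100). It was the most abundant integrin gene in each genotype, at 489 ± 36.2 and 724 ± 60.1 RPKM, and its adjusted p was 0.0587 without WT replicate 1 and 0.0603 without WT replicate 2. Itga7 (alpha7, a laminin receptor of muscle) showed 42, 57 and 33 counts across WT replicates against 149, 157 and 100 across TCKO replicates (1.68 ± 0.24, adjusted p = 0.00346). Skeletal muscle markers summed to 11.7 to 36.3 CPM in WT and 36.7 to 91.5 in TCKO, where Acta1 was most of the TCKO sum in each library (67.0, 71.4 and 30.0 CPM). Of the 4 tested, 1 passed, Acta1 (3.14 ± 0.47, adjusted p = 0.00416), where 17.7% of all genes passed. Des, Myh3 and Mylpf did not pass. Pax7 and Myf5 were at 0 in every library, and the part of these markers in the Itga7 value was not tested. Itga9, at 225, 232 and 171 against 145, 116 and 146 counts, fell by 0.59 ± 0.13 (adjusted p = 0.0220), and lost its call in 4 of the 6 left-out fits. The myeloid subunit Itgam, with 47, 69 and 33 against 23, 24 and 20 counts, fell by 1.08 ± 0.26 (adjusted p = 0.0279) and lost its call in 5 of them. Itga2b, Itga8, Itgal, Itgb2, Itgb4, Itgb7 and Itgb8 did not pass. With replicates 1 and 2 summed, none of the calls of Itgb1, Itga7, Itga9, Itga11 and Itgam held (adjusted p = 0.0694 to 0.207), where 2.79% of all genes passed. With that sum and the replicate term, Itga7 (adjusted p = 0.0130) and Itga11 (0.0267) passed, where 8.32% of all genes did. Itgb1 (0.136), Itga9 (0.113) and Itgam (0.0900) did not.

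Of 12 collagen genes tested, 5 fell and 1 rose, with a median log2 fold change of −0.54. Over all genes 17.7% passed, the share to set beside this count and that of the laminin genes. Col2a1 (−3.13 ± 0.17, adjusted p = 9.7e-05), Col11a1 (−2.10 ± 0.14, adjusted p = 0.00013) and Col9a1 (−3.26 ± 0.43, adjusted p = 0.00224) are cartilage collagens and were lower beside the chondrocyte markers given above, which include Col2a1 and Col9a1. Col5a1 is a fibrillar collagen found with collagen I (−0.75 ± 0.09, adjusted p = 0.0019). Of 9 laminin genes tested, 1 rose (Lama2, 1.54 ± 0.15, adjusted p = 0.000696) and 2 fell (Lama1 by 2.46 ± 0.32, adjusted p = 0.00226, and Lamb2 by 0.98 ± 0.15, adjusted p = 0.0049), while the fourth by rank, Lamb1, was at 0.22 ± 0.07 (adjusted p = 0.0632).

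Of 18 tested ligands of the fibronectin and RGD-binding subunits, 5 rose and 2 fell, where 17.7% of all genes passed. Their median was 0.10. The ligand of alpha4, Vcam1, fell by 1.34 ± 0.13 (adjusted p = 0.000635) while Itga4 itself rose. Fbn1 (fibrillin-1, an RGD-bearing microfibril protein, 0.80 ± 0.08, adjusted p = 0.000822) and Tnc (tenascin-C, 1.17 ± 0.14, adjusted p = 0.00163) rose. Npnt (nephronectin, the ligand of alpha8, −2.29 ± 0.26, adjusted p = 0.00129) fell. Of ligands not named by rank, Spp1 (osteopontin, 2.62 ± 0.44, adjusted p = 0.00669) rose from a mean of 1156 CPM in WT to 7205 in TCKO. Its adjusted p was 0.123 with replicates 1 and 2 summed. Fn1 (fibronectin, −0.44 ± 0.13, adjusted p = 0.0537) did not pass.

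Inside the cell, talins, kindlins, tensins and the ILK complex link beta tails to actin. Of 21 tested activators and adaptors, 6 rose and 4 fell (median 0.17), where 17.7% of all genes passed. Tns1 rose by 0.73 ± 0.10 (adjusted p = 0.00259) and Tns3 fell by 0.67 ± 0.08 (adjusted p = 0.00146), both tensins. Lims2 (PINCH-2, of the ILK complex, −1.08 ± 0.15, adjusted p = 0.00332) and Tln2 (talin-2, −0.57 ± 0.09, adjusted p = 0.00448) fell.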

How the data were processed

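Libraries were prepared from poly(A) RNA with a directional kit. Per the labels and the study's methods, the authors aligned reads with STAR 2.7.0e to GRCm38, counted reads per gene with featureCounts 2.0.0 and deposited raw counts; strand use and the handling of shared reads were not given in the sources used here. Gene symbols were matched for 99.4% of identifiers, and 0 sample columns were unassigned. Members and gene lists were chosen with earlier results of these data known.

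Genes passing filterByExpr were tested in R 4.3.3 with edgeR 4.0.16 (TMM factors, genotype only, quasi-likelihood test) and Benjamini-Hochberg adjustment over 13826 genes; a gene passed at an adjusted p under 0.05. Every adjusted p given is from this fit unless another is named. The model was tested on simulated data. CPM and RPKM (union exon length) used library totals, without TMM factors. Named genes were all members, other subunits with at least 20 counts in a library, and the 4 lowest adjusted p of each list. Spp1 and Fn1 were named outside that rule.

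Deviations from genotype means correlated at 0.204, 0.214 and 0.347 for replicates 1, 2 and 3 over 13826 genes, each above 0.1, so replicate number was fitted as a block; WT replicate 2 and TCKO replicate 1 correlated at 0.225, as closely as same-numbered libraries. Alternatives included DESeq2 1.42.0, other scalings and filters, replicates 1 and 2 summed, and leaving out each library.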

Additional observations from a re-analysis of the deposited data

How the results depend on the processing

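The 3 subunits higher, 3 lower and 2 over 2-fold, and 2447 genes in all, were also obtained as 3, 3 and 2 with DESeq2, 2 other normalizations, library totals alone and 2 filters. Without a filter 5 subunits were higher, and with the replicate block 5 (Itga3 and Itgb3 added). Summing replicates 1 and 2 left 0 higher, 0 lower and 0 over 2-fold among the subunits and 386 genes in all. By edgeR, the adjusted p of the subunits was then 0.0699 or more. Summing with the replicate block gave 3 higher, 2 lower and 1150 genes in all, and robust edgeR 3 and 2. Leaving out libraries gave 1 to 5 higher, 2 to 4 lower, 1 to 3 over 2-fold and 1153 to 6237 genes in all, the largest with replicate 3 of both genotypes left out, chosen after seeing the data. No fitted fold change of a member changed direction under any alternative, but the Itgav difference between same-numbered libraries, −0.02 on average, was 0.15 in replicate 3. Itga2b, near 0, was −0.0303 and −0.0749 with summed replicates (with and without the block). Itgb8 was 0.0077 with summed replicates and the block, and −0.0603 with the block alone. Leaving out libraries gave −0.15 to 0.34 for Itga2b, −0.13 to 0.52 for Itgb4, −0.38 to 0.38 for Itgb7 and −0.25 to 0.0263 for Itgb8, and none of these was called. The cause was not tested. Itga2, at 19 to 38 counts in WT, was among the least deeply counted members.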

Other observations

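Of 18 tested kinases and signalling genes, 2 rose and 1 fell, with a median of 0.09. That count is close to the share of all genes that passed, 17.7%. Src, the kinase recruited to adhesions, rose by 0.50 ± 0.07 (adjusted p = 0.00333). Bcar1, the scaffold p130Cas, rose by 0.56 ± 0.15 (adjusted p = 0.0400). Arhgef6, a Rac exchange factor, fell (−1.16 ± 0.17, adjusted p = 0.00341). Ptk2, the focal adhesion kinase, was at 0.32 ± 0.10 (adjusted p = 0.0654, 0.0294 with the replicate block, and 0.119 with the block once replicates 1 and 2 were summed). The Bcar1 call held in 2 of the 6 fits with a library removed.

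Of 17 tested genes of the list named inactivators and trafficking, 3 rose, each over 2-fold, and 2 fell, where 17.7% of all genes passed. The median of the list was −0.14, and 3.16% of all genes were higher by more than 2-fold. Those that rose were Dok1 (1.04 ± 0.07, adjusted p = 0.000127), which competes with talin for beta tails, Fblim1 (migfilin; 1.39 ± 0.10, adjusted p = 0.000192) and Apbb1ip (RIAM; 1.75 ± 0.20, adjusted p = 0.00129). Migfilin and RIAM are known to favour integrin activation, against the name of the list. The tetraspanin Cd9, an integrin partner at the membrane, fell by 0.64 ± 0.08 (adjusted p = 0.00212).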
